A study of Mus musculus with 21 samples.

Results

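Mitochondria in a cell are joined into a network by fusion and cut apart by fission, and the 7 genes described here encode the core of both processes or a protease that controls it. They were Mfn1, Mfn2, Opa1, Dnm1l, Fis1, Mff and Oma1, chosen by gene symbol, and each matched 1 row in both tables of gene counts. The tables held 33829 genes in the pre-treatment experiment and 55385 genes in the delayed treatment experiment, and 33622 genes were in both. RNA was from male C57BL/6 mice, labelled as midbrain and 6 weeks old, with 3 mice in each of 7 groups. All injections were intraperitoneal. MPTP, a neurotoxin whose product blocks mitochondrial complex I in dopaminergic neurons, was given at 30 mg/kg per day for 5 days. Irisin, the released part of the membrane protein FNDC5, was given at 200 μg/kg per day for 5 days.

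In the pre-treatment experiment, control mice received ddH2O for 10 days, MPTP mice received ddH2O for 5 days and then MPTP, and irisin pre-treated mice received irisin and then MPTP. In the delayed treatment experiment, control mice received ddH2O for 10 days, irisin-alone mice received ddH2O for 5 days and then irisin, MPTP mice received MPTP and then ddH2O for 5 days, and delayed irisin mice received MPTP and then irisin. The labels name no transgene or deletion in any group. The methods describe nigral tissue taken by hand, so each value is an average over all the cells of a tissue piece. In such bulk RNA, fewer cells of a type and less RNA per cell cannot be told apart.

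Fusion proceeds in 2 steps. Mitofusin 1 and mitofusin 2, the GTPases encoded by Mfn1 and Mfn2, tether and fuse the outer membranes, and mitofusin 2 also lies where mitochondria touch the endoplasmic reticulum. OPA1, a dynamin-like GTPase, fuses the inner membranes and keeps the cristae in shape. OMA1 is a stress-activated protease of the inner membrane that cleaves OPA1 and so stops inner membrane fusion. In fission, the GTPase DRP1, encoded by Dnm1l, is recruited from the cytosol to receptors in the outer membrane and constricts the organelle. MFF is a main receptor for it, and FIS1 is an outer membrane adaptor linked to fission. Neurons rely on this cycle to distribute mitochondria along their axons and to remove damaged ones. The GO terms beside each gene in the tables follow these roles in part, since the term mitochondrial fusion was given to 5 of the 7 genes, Fis1 and Mff included, and mitochondrial fission to 4, Opa1 included.

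Libraries held 66653781 to 75637604 counts per mouse in the first experiment and 48843585 to 77203445 counts in the second. Among the 7 genes, Oma1 was lowest, at 5.70 to 10.3 CPM (counts relative to library size, scaled between mice with TMM factors) and Dnm1l had the most counts, at 218 to 375 CPM. Transcripts of mitochondrial DNA took 10.6 to 12.9% of the counts in the first experiment and 7.65 to 9.50% in the second. All 7 markers of dopaminergic neurons were measured, with Th, which makes the dopamine precursor, at 21.3 to 63.3 CPM and Slc6a3, the dopamine transporter, at 15.3 to 106 CPM, while Pitx3 was at 0 to 0.960 CPM. The summed level of 4 choroid plexus markers ran from 9.77 to 1640 CPM between mice and differed between mice of the same group, and its part in the results was not tested. The experiments were tabulated separately and were never tested against each other.

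**Figure D1:**
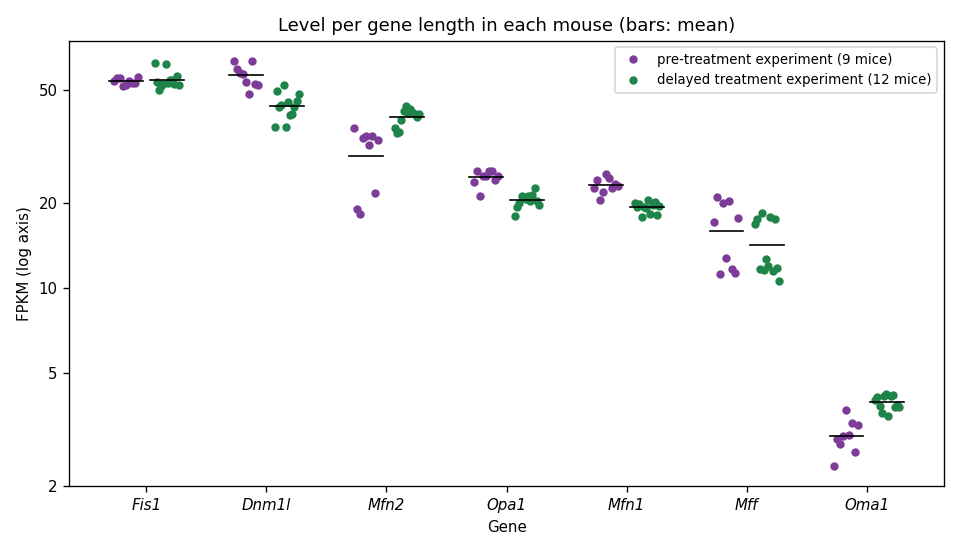
FPKM (log axis) of each gene in each mouse, with genes ordered by mean and the experiments side by side. Oma1 was lowest in all 21 mice and Fis1 was above every gene but Dnm1l, and Mfn2 in the pre-treatment experiment and Mff in both experiments fell on separated levels.

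The order of the genes was read from FPKM, which divides the counts by gene length and by library size. Fis1 had a mean of 53.4 FPKM in the 9 mice of the pre-treatment experiment and 54.2 FPKM in the 12 mice of the delayed treatment experiment. Dnm1l was at 56.1 and 43.9 FPKM, and it was above Fis1 in 6 of 9 mice and in 0 of 12 mice, so the order of these neighbours was not fixed. Mfn2 followed with 29.2 and 40.0 FPKM, but it was below Mfn1 and below Opa1 in 3 of 9 mice each and above Dnm1l in 3 of 12. Opa1 (24.6 and 20.4 FPKM) and Mfn1 (23.0 and 19.2 FPKM) lay close together, and Mfn1 was the higher of the pair in 1 of 9 and 2 of 12 mice. Mff had 15.9 and 14.1 FPKM and Oma1 3.02 and 3.95 FPKM. Oma1 was below each of the other 6 genes in every mouse. Counts and FPKM implied one gene length per gene, 1.13 times the union of its exons in GENCODE M21 for each of the 7, so that a gene with a long union, such as Mff at 9.76 kb, was divided by more than Fis1 at 1.71 kb.

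**Figure D2:**
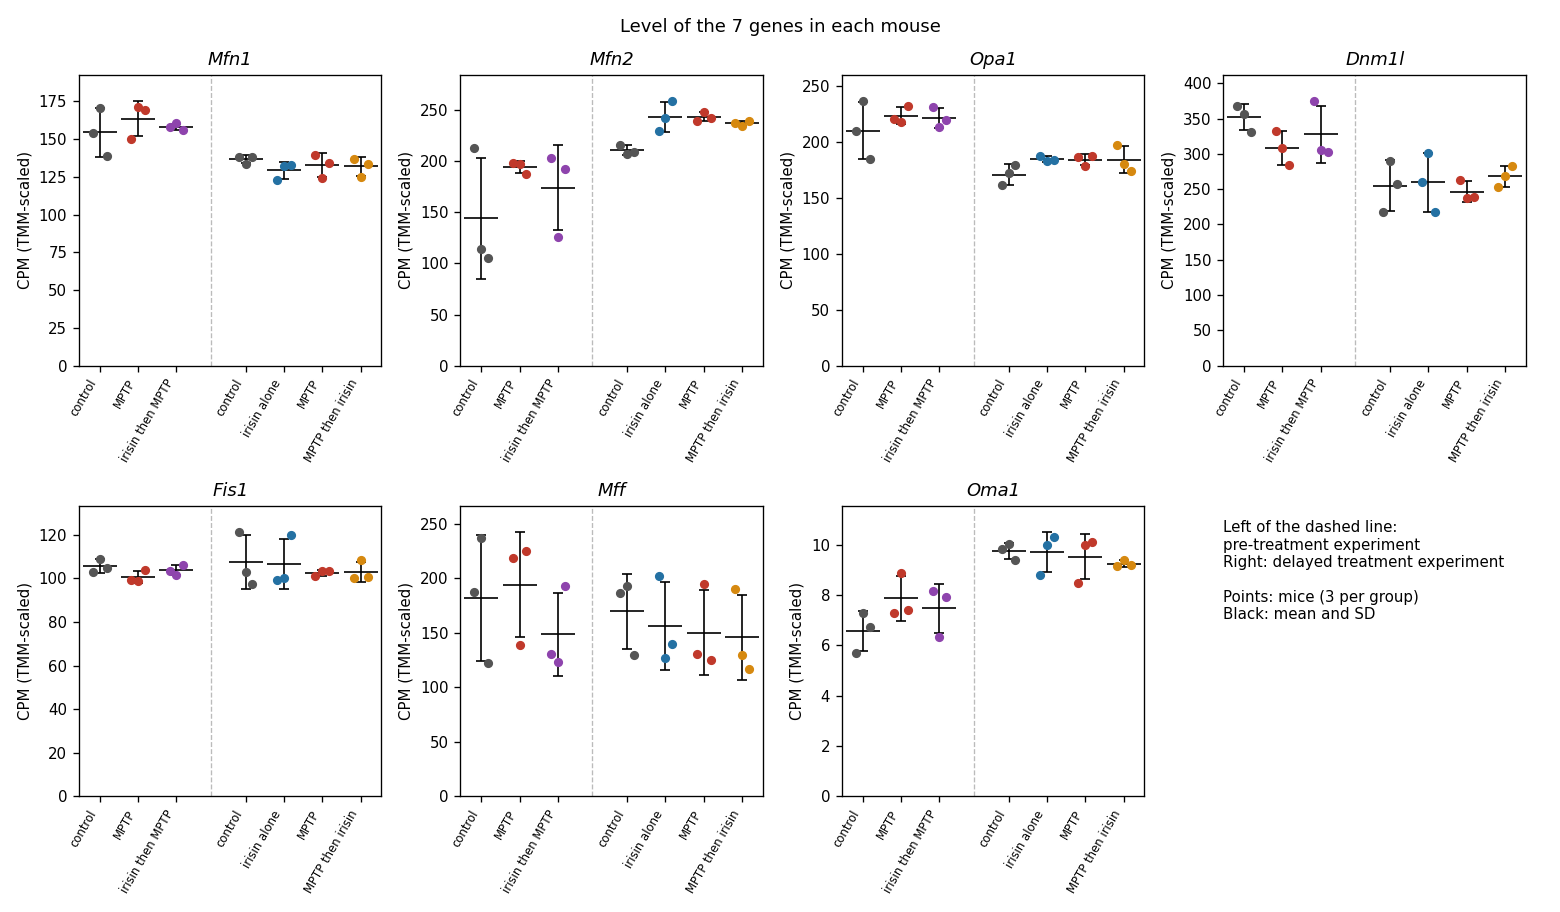
CPM of the 7 genes in each mouse (points), with the mean and SD of each group in black, in the pre-treatment (left of the dashed lines) and delayed treatment (right) experiments. Mfn2 in the 3 delayed control mice, at 207 to 216 CPM, lay below the 9 other mice of that experiment, while Mff had mice at both of its levels in every group.

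Mfn2, the mitofusin that also tethers mitochondria to the endoplasmic reticulum (chr4:147873599-147904704, minus strand, GRCm38), was the member with the smallest unadjusted p against the delayed controls. Its level was 216, 207 and 209.5 CPM in the 3 control mice of the delayed treatment experiment. It was 229.7, 243 and 259 CPM in irisin-alone mice, 239, 248 and 243 CPM in MPTP mice and 238, 234 and 239.6 CPM in delayed irisin mice. All 9 mice that received MPTP, irisin or both were thus above all 3 controls, a split chosen after the values were seen and shown in either direction by 3.25% of the 21922 genes tested. Against controls, the log2 fold change was 0.21 in MPTP mice (SE 0.049, a 1.15-fold difference, edgeR adjusted p = 0.262), 0.21 in irisin-alone mice (SE 0.049, edgeR adjusted p = 0.295) and 0.17 in delayed irisin mice (SE 0.049, edgeR adjusted p = 0.382). None passed the threshold of 0.05 after Benjamini-Hochberg adjustment over all genes tested. The 3 comparisons share the same control mice and so are not 3 separate observations of a difference. DESeq2, run as an alternative, put Mfn2 under the threshold in MPTP mice (log2 fold change 0.22, adjusted p = 0.0441) and irisin-alone mice (0.22, adjusted p = 0.0493), where it called 0.531% and 0.43% of the genes it fitted.

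Other measures separated the same 3 control mice. The summed level of the 5 neuron markers was 4717 to 4800 CPM in delayed controls and 4330 to 4616 CPM in the other 9 mice. None of the 5 separated the controls from those 9 mice on its own. That of the 7 dopaminergic markers was 662 to 698 CPM against 451 to 625 CPM, of which Aldh1a1 made up a mean of 388 CPM in controls, and none of the 7 separated the controls from the 9 others on its own. Mitochondrial transcripts took 8.48 to 9.50% of the counts in controls and 7.65 to 8.71% in the others, which overlap. The summed level of 12 nuclear genes for common mitochondrial proteins, such as citrate synthase and the import pore Tomm40, was 4308 to 4633 CPM against 4164 to 4611 CPM. The markers of astrocytes, oligodendrocytes, microglia, endothelial cells, choroid plexus and serotonergic neurons overlapped between controls and the rest. The part of these measures in the Mfn2 difference was not tested.

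In the pre-treatment experiment, Mfn2 fell on separated levels. It was 213, 114 and 105 CPM in control mice, 198, 198 and 188 CPM in MPTP mice and 203, 126 and 193 CPM in irisin pre-treated mice. A 1.49-fold gap separated 3 mice at or under 126 CPM, which were 2 controls and 1 irisin pre-treated mouse, from the 6 others, and the within-group SD on the log2 scale was 0.39, above that of 93.6% of the 2184 genes within 2-fold of its mean level. With this spread, the log2 fold change of 0.43 between MPTP and control mice had a 95% interval of -0.18 to 1.05 (edgeR adjusted p = 0.868). The log2 fold change of Mfn2 was 0.82 without control mouse 1 (edgeR adjusted p = 0.588), 0.25 without control mouse 3 and 0.29 without control mouse 2. In the delayed treatment experiment every mouse was at 207 CPM or above, and the within-group SD was 0.049, above that of 12.6% of 1510 genes of like level.

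The promoter of Mfn2 is printed here together with that of Opa1, since these were the members with the smallest unadjusted p against the delayed controls. Each is the RefSeq window (GRCm38.p6) from 250 bases before to 50 bases after the start site nearest to the gene's start in the tables, chr4:147904649-147904948 on the minus strand for Mfn2 and chr16:29579084-29579383 on the plus strand for Opa1. The letters of 8 motifs were searched on both strands, and capitals mark a match to any of them, where matches may overlap.
Mfn2: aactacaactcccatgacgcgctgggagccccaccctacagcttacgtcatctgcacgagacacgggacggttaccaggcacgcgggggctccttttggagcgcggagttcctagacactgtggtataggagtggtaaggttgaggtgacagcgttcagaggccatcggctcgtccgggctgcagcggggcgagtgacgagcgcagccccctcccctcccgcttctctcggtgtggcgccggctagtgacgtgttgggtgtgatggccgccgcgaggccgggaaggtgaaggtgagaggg
Opa1: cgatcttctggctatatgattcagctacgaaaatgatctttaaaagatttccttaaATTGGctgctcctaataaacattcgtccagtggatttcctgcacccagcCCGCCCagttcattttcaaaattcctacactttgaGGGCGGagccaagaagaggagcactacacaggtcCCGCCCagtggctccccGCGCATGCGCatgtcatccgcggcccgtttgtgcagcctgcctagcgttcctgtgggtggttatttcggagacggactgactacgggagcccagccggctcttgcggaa
The motifs were those of NRF1 (GCATGCGC), ETS factors (CCGGAAG), the GC box (GGGCGG), the CCAAT box (CCAAT), ERR (AAGGTCA), YY1 (AAGATGGC), the E-box (CACGTG) and CRE (TGACGTCA). The window of Mfn2 held none of these letters. That of Opa1 held 3 GC boxes, 1 CCAAT box and an NRF1 match that reads on both strands over overlapping letters, and it was the only one of the 7 windows with the NRF1 letters, which 2.71% of all 32851 RefSeq windows hold. GC boxes were in the windows of 6 members (35.7% of all windows), CCAAT boxes in 5 (37.4%), and ETS letters in those of Mfn1 and Fis1 (8.86%). The letters of ERR (4.72%), YY1 (2.75%), the E-box (7.15%) and CRE (1.79%) were in none of the 7. These are matches of letters in 1 window per gene and say nothing of binding.

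Mfn1, the other mitofusin (chr3:32529465-32579239, plus strand), varied less. It was 154, 171 and 139 CPM in control, 150.1, 171 and 169 CPM in MPTP and 158, 160.3 and 156 CPM in irisin pre-treated mice of the first experiment. In the second it was 138, 133 and 138 CPM in control, 123, 132 and 133 CPM in irisin-alone, 139.5, 124 and 134 CPM in MPTP and 137, 125 and 134 CPM in delayed irisin mice. Irisin-alone mice were all below the controls, with a log2 fold change of -0.08 (SE 0.059, edgeR adjusted p = 0.722) and the nearest mice at 132.9 and 133.5 CPM, and the groups overlapped in the 7 other comparisons. The FPKM of Mfn2 relative to Mfn1 was 1.82 ± 0.030 (SD, n = 3) in delayed controls and 2.22 ± 0.067 in irisin-alone, 2.17 ± 0.17 in MPTP and 2.12 ± 0.081 in delayed irisin mice. The ratio was 1.10 ± 0.46 in control, 1.41 ± 0.13 in MPTP and 1.30 ± 0.32 in irisin pre-treated mice of the first experiment. Both mitofusins are related in sequence, and how reads that match both were counted is not given in the sources used here.

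Opa1, the GTPase of inner membrane fusion (chr16:29579334-29654884, plus strand), was at 161, 172 and 179 CPM in the delayed controls. It was 187, 183 and 184 CPM in irisin-alone, 186, 179 and 187 CPM in MPTP and 197, 180.5 and 174 CPM in delayed irisin mice. Only the irisin-alone mice lay wholly above the controls. The log2 fold change against controls was 0.11 in all 3 groups, with SE 0.058 and an edgeR adjusted p of 0.583 for irisin alone, 0.664 for MPTP and 0.606 for delayed irisin, and all 3 were 0.07 without control mouse 1. That of delayed irisin mice was 0.05 without delayed irisin mouse 1. In the first experiment Opa1 was 209, 236 and 185 CPM in control, 221, 217 and 232 CPM in MPTP and 231, 213 and 219 CPM in irisin pre-treated mice, and all groups overlapped.

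Oma1, whose product cleaves OPA1 (chr4:103313812-103366443, plus strand), was 5.70, 7.27 and 6.71 CPM in control, 7.30, 8.88 and 7.42 CPM in MPTP and 8.16, 6.35 and 7.91 CPM in irisin pre-treated mice. MPTP mice were all above the controls, with the nearest mice at 7.30 and 7.27 CPM, and the log2 fold change of 0.26 had a 95% interval of -0.08 to 0.61 (SE 0.15, edgeR adjusted p = 0.857). Between irisin pre-treated and control mice it was 0.19 (SE 0.15, edgeR adjusted p = 0.869). Without control mouse 1 these values of Oma1 were 0.16 and 0.09. In the second experiment the level was 8.48 to 10.3 CPM over all 12 mice, and the log2 fold changes of Oma1 between groups were -0.08 to -0.01, of which that between MPTP and control mice was 0.04 without MPTP mouse 1.

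Dnm1l, the gene of DRP1 (chr16:16312230-16358959, minus strand), was 369, 357 and 331 CPM in control mice, 332, 308 and 285 CPM in MPTP mice and 375, 306 and 303 CPM in irisin pre-treated mice. The highest MPTP mouse and the lowest control mouse were at about the same level, so these groups just overlapped. The log2 fold change between MPTP and control mice was -0.19 (95% interval -0.41 to 0.02, SE 0.096, edgeR adjusted p = 0.838). Between irisin pre-treated and MPTP mice it was 0.09 (SE 0.096, edgeR adjusted p = 0.985), and it was -0.01 without the irisin pre-treated mouse at 375 CPM. Between irisin pre-treated and control mice it was -0.10 (SE 0.096, edgeR adjusted p = 0.893), and leaving out 1 irisin pre-treated mouse in turn gave -0.21, -0.06 and -0.05.

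In the second experiment Dnm1l was 218, 291 and 257 CPM in control, 259.9, 301 and 218 CPM in irisin-alone, 263, 238 and 239 CPM in MPTP and 253, 269 and 283 CPM in delayed irisin mice. The lowest mice, at 218 CPM, were 1 control and 1 irisin-alone mouse, and they were the same mice in which Fis1 was highest. An antisense gene, Gm49521, overlaps Dnm1l and was at 0.266 to 0.787 CPM, and whether counting used the strand is not given in the sources used here.

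Fis1, the outer membrane adaptor (chr5:136953275-136966232, plus strand), had the smallest spread of the 7 in the pre-treatment experiment. It was 103, 109 and 105 CPM in control, 99.3, 98.8 and 104 CPM in MPTP and 103, 102 and 106 CPM in irisin pre-treated mice, with a within-group SD of 0.039 on the log2 scale, above that of only 2.92% of 3528 genes of like level. Of the 12 mice of the second experiment, 10 were at 97.6 to 108 CPM and the same 2 mice just named, 1 control and 1 irisin-alone, were at 121 and 119.8 CPM. The log2 fold changes of Fis1 lay between -0.07 and 0.04 in the 8 pairwise comparisons. The 95% intervals of Fis1 in the pre-treatment experiment ran from -0.19 to 0.17.

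Mff, the receptor gene for DRP1 (chr1:82724890-82752390, plus strand), had 2 levels in both experiments, and neither followed the groups. It was 187, 237 and 122 CPM in control, 219, 139 and 225 CPM in MPTP and 130.2, 124 and 193 CPM in irisin pre-treated mice. The second experiment gave 186, 193 and 130.1 CPM in control, 202, 127 and 140.1 CPM in irisin-alone, 130.4, 195 and 125 CPM in MPTP and 191, 130.0 and 117 CPM in delayed irisin mice. No mouse was between 139 and 187 CPM in the first experiment or between 140.1 and 186 CPM in the second, gaps of 1.35-fold and 1.33-fold, which exceeded the largest gap of 91.0% and 91.4% of genes of like level. Each of the 7 groups had mice on both sides. The within-group SD was 0.41 and 0.35 on the log2 scale, above that of 94.1% and 93.7% of genes of like level, and this spread set wide intervals. The log2 fold change between irisin pre-treated and MPTP mice was -0.38, with a 95% interval of -1.02 to 0.25 (SE 0.28, edgeR adjusted p = 0.966), and it was -0.62 without irisin pre-treated mouse 3 and -0.58 without MPTP mouse 2. A sense intronic gene, Gm28941, overlaps Mff and was at 0.302 to 0.976 CPM.

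**Figure D3:**
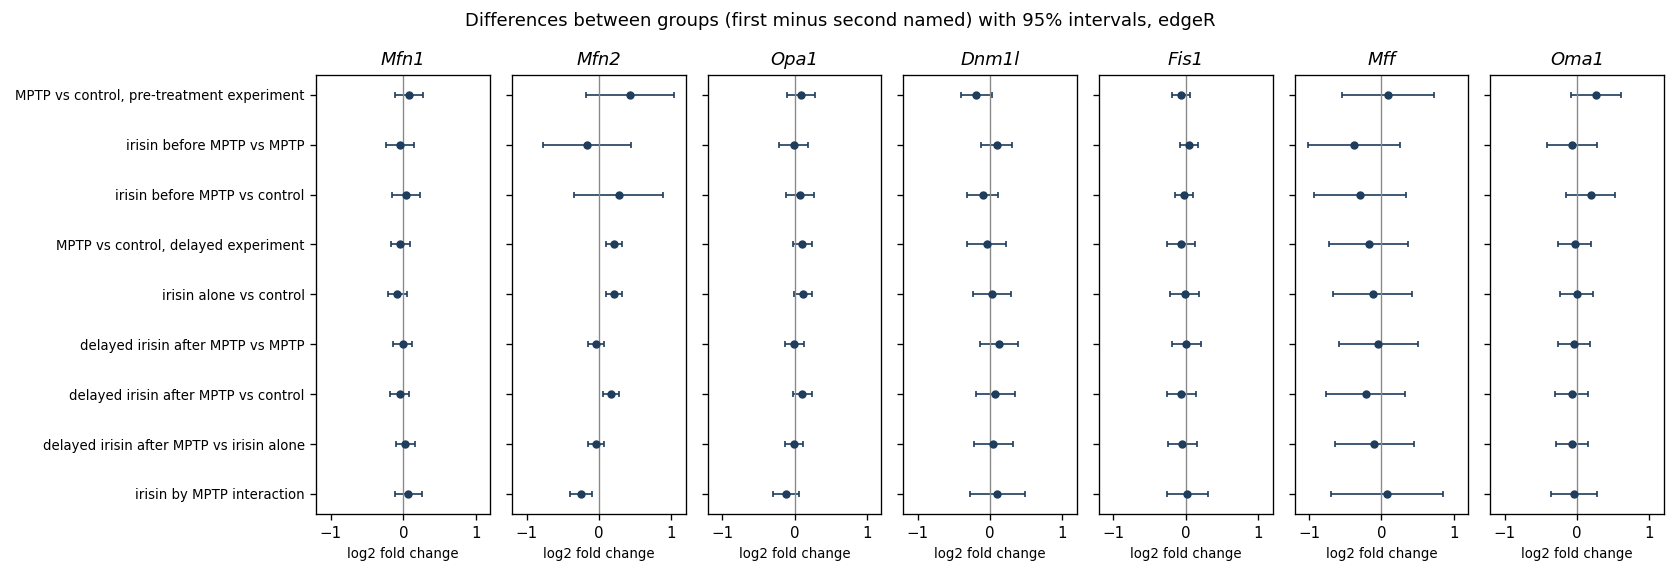
Log2 fold change (x axis, first group minus second) of each gene in 8 comparisons and the irisin by MPTP interaction, with 95% intervals from edgeR. Among the 7 genes, the 3 comparisons of Mfn2 with delayed controls and its interaction are those whose intervals leave out 0, and no adjusted p was under 0.05.

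The comparisons asked whether MPTP changed these genes and whether irisin, before or after it, changed them further. In the pre-treatment experiment, edgeR called 0 of the 7 genes in each of the 3 comparisons, and 0 were at an unadjusted p under 0.05. Under that unadjusted p were 6.03% of all genes between MPTP and control mice. The share was 6.22% between irisin pre-treated and MPTP mice and 7.12% between irisin pre-treated and control mice. Of all 22641 genes tested, 0.0221% were called between MPTP and control mice, 0.0707% between irisin pre-treated and MPTP mice and 0.0707% between irisin pre-treated and control mice, so few calls were made anywhere. DESeq2 and limma on log2 FPKM called 0 of the 7 as well. The groups did not overlap for 1 gene (Oma1) between MPTP and control mice, against 11.6% of all genes, for 0 between irisin pre-treated and MPTP mice (14.2%) and for 0 between irisin pre-treated and control mice (13.6%). The log2 fold changes of the 7 had a median of 0.09 between MPTP and control mice, -0.05 between irisin pre-treated and MPTP mice and 0.03 between irisin pre-treated and control mice, where the medians over all genes were -0.0018, 0.0031 and 0.0037.

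In the delayed treatment experiment, edgeR also called 0 of the 7 genes, where 0.132% of 21922 genes were called between MPTP and control mice, 0.109% between irisin-alone and control mice and 0.109% between delayed irisin and control mice. In each of these 3 comparisons 1 of the 7, Mfn2, was at an unadjusted p under 0.05, as were 8.33%, 8.97% and 9.31% of all genes, and limma on log2 FPKM called 0. The groups did not overlap for 1 of the 7 (Mfn2) between MPTP and control mice (16.2% of all genes), for 3 between irisin-alone and control mice (Mfn1, Mfn2 and Opa1, against 15.1%) and for 1 (Mfn2) between delayed irisin and control mice (14.6%). In the order MPTP, irisin-alone and delayed irisin mice against controls, the log2 fold changes of the fusion genes were 0.21, 0.21 and 0.17 (Mfn2), 0.11, 0.11 and 0.11 (Opa1) and -0.04, -0.08 and -0.05 (Mfn1), and those of the fission genes were -0.05, 0.03 and 0.07 (Dnm1l), -0.07, -0.01 and -0.06 (Fis1) and -0.18, -0.12 and -0.22 (Mff). The fusion genes did not share a direction in any of the 3 comparisons. The fission genes were all lower in MPTP mice, while Dnm1l was higher in irisin-alone and delayed irisin mice. These values of Dnm1l had an SE of 0.12, and each changed sign when a single mouse was left out. That of MPTP mice was 0.05 without control mouse 2. That of irisin-alone mice was -0.10 without irisin-alone mouse 2, and that of delayed irisin mice was -0.03 without control mouse 1. Without control mouse 1, the values of Fis1 were 0.03, 0.08 and 0.04.

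Delayed irisin mice and MPTP mice, which received the same MPTP and differed in the 5 days after it, were compared to see what irisin added. edgeR called 0 of the 7 genes, against 0.00456% of all genes. At an unadjusted p under 0.05 were 0 of the 7, against 3.9% of all genes. No gene of the 7 had groups that did not overlap, against 10.7% of all genes. The smallest unadjusted p was that of Dnm1l (log2 fold change 0.12, 95% interval -0.15 to 0.39, SE 0.12, edgeR adjusted p = 0.9995), followed by Mfn2 (-0.04, 95% interval -0.14 to 0.07, SE 0.049, edgeR adjusted p = 0.9995). The 95% interval of Mfn1 was -0.14 to 0.12 and that of Opa1 -0.13 to 0.13. For Mff the interval was -0.59 to 0.50, so these mice do not exclude differences of Mff within that range.

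Between delayed irisin and irisin-alone mice, which differed in MPTP, 0 of the 7 were called (0.00456% of all genes). None was at an unadjusted p under 0.05 (3.88% of all genes) or had groups that did not overlap (8.69% of all genes). The smallest unadjusted p were those of Mfn2 (log2 fold change -0.04, SE 0.049, edgeR adjusted p = 1.0) and Oma1 (-0.07, SE 0.10, edgeR adjusted p = 1.0). The interaction of irisin and MPTP, the log2 fold change of irisin in MPTP mice minus that in control mice, was -0.25 for Mfn2 (95% interval -0.40 to -0.09, SE 0.069, edgeR adjusted p = 0.734) and -0.11 for Opa1 (SE 0.082, edgeR adjusted p = 0.945). Here 0 of the 7 were called, by edgeR, DESeq2 or limma, where edgeR called 0.0411% of all genes. At an unadjusted p under 0.05 were 1 of the 7, Mfn2, and 5.57% of all genes. In mean levels, Mfn2 was 244 CPM in irisin-alone mice and 211 CPM in controls, and 237 CPM in delayed irisin mice and 243.5 CPM in MPTP mice. The interaction uses the same control mice once more.

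**Figure D4:**
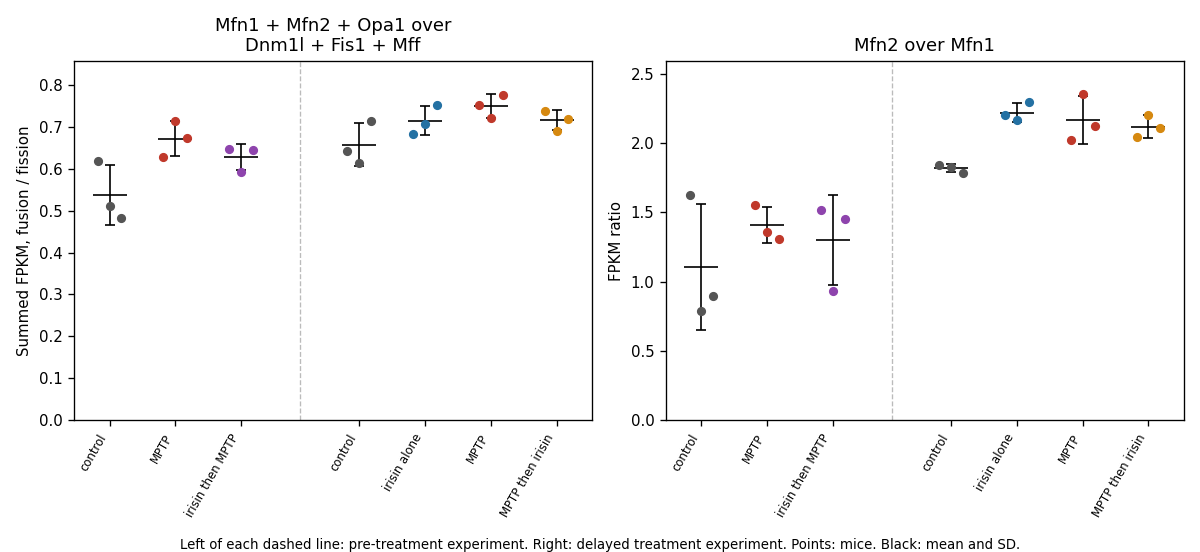
Left, the summed FPKM of Mfn1, Mfn2 and Opa1 over that of Dnm1l, Fis1 and Mff in each mouse. Right, the FPKM of Mfn2 over that of Mfn1, with group means and SDs in black. The lowest ratios, 0.484 and 0.510 at left and 0.788 to 0.928 at right, are of mice with low Mfn2 in the pre-treatment experiment.

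The balance of fusion and fission transcripts was described by the ratio of summed FPKM, with no test. It was 0.618, 0.510 and 0.484 in control mice of the pre-treatment experiment, 0.630, 0.714 and 0.673 in MPTP mice and 0.648, 0.594 and 0.646 in irisin pre-treated mice. The 2 lowest were the controls with low Mfn2, and MPTP mice were all above controls. The delayed treatment experiment gave 0.643, 0.615 and 0.716 in control, 0.685, 0.708 and 0.753 in irisin-alone, 0.754, 0.721 and 0.777 in MPTP and 0.738, 0.690 and 0.720 in delayed irisin mice. Only the MPTP mice lay wholly above the controls. The sum of the fusion genes was 74.4 ± 0.72 FPKM (SD, n = 3) in delayed controls and 82.2 ± 0.89 FPKM in MPTP mice, and that of the fission genes 113 ± 7.7 FPKM and 109.6 ± 3.1 FPKM. A higher fusion sum was not particular to MPTP mice. It was 81.2 ± 2.8 FPKM in irisin-alone and 80.5 ± 2.7 FPKM in delayed irisin mice, with fission sums of 113.6 ± 2.5 FPKM and 112.5 ± 1.4 FPKM. Mfn2 is a term of the fusion sum, so the ratio holds its values again.

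The 7 genes did not vary as one unit between mice. Over the 21 mice, with each experiment centred on its mean, Pearson's r of log2 CPM was between -0.47 (Dnm1l and Fis1) and 0.44 (Mfn1 and Opa1) for the 21 pairs, with a median of 0.08. For Dnm1l and Fis1 Spearman's rho was -0.28, and r was -0.02 without the control and the irisin-alone mouse named above. Genes elsewhere in the table were closer to each member than any other member was, but they are the highest of 16172 compared. Such a pick says nothing of whether the 7 vary together. For Opa1 the closest genes were Mapk9, Spag9 and Cltc, with r of 0.92 each and 0.83 to 0.84 without the 2 mice farthest from the median. For Mfn2 they were Apaf1 (0.90), Gtf3c1 (0.86) and Gbf1 (0.83), but in the 12 mice of the delayed treatment experiment r with Apaf1 was 0.17. For Mff they were Kcna6 (0.80), Gm10736 (0.72) and Recql (0.70).

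For Fis1 the closest genes were Mad1l1 (0.86), the proteasome ATPase Psmc2 (0.80) and the outer membrane channel Vdac1 (0.79), and without the 2 mice with high Fis1 the r with Vdac1 was 0.33. For Dnm1l they were Brd7 (0.76), Tiam1 (0.75) and Scn2b (0.70). For Mfn1 they were Fyco1 (0.81), Col11a2 (0.80) and Anks1 (0.76), and for Oma1 Ltc4s (0.79), Rhpn2 (0.77) and Cab39l (0.77). In the 12 mice of the delayed treatment experiment, r of Oma1 with Rhpn2 was 0.37. All the genes named are the highest of 16172 genes compared with each member, over mice that differ in tissue content, and are given as descriptions.

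**Figure D5:**
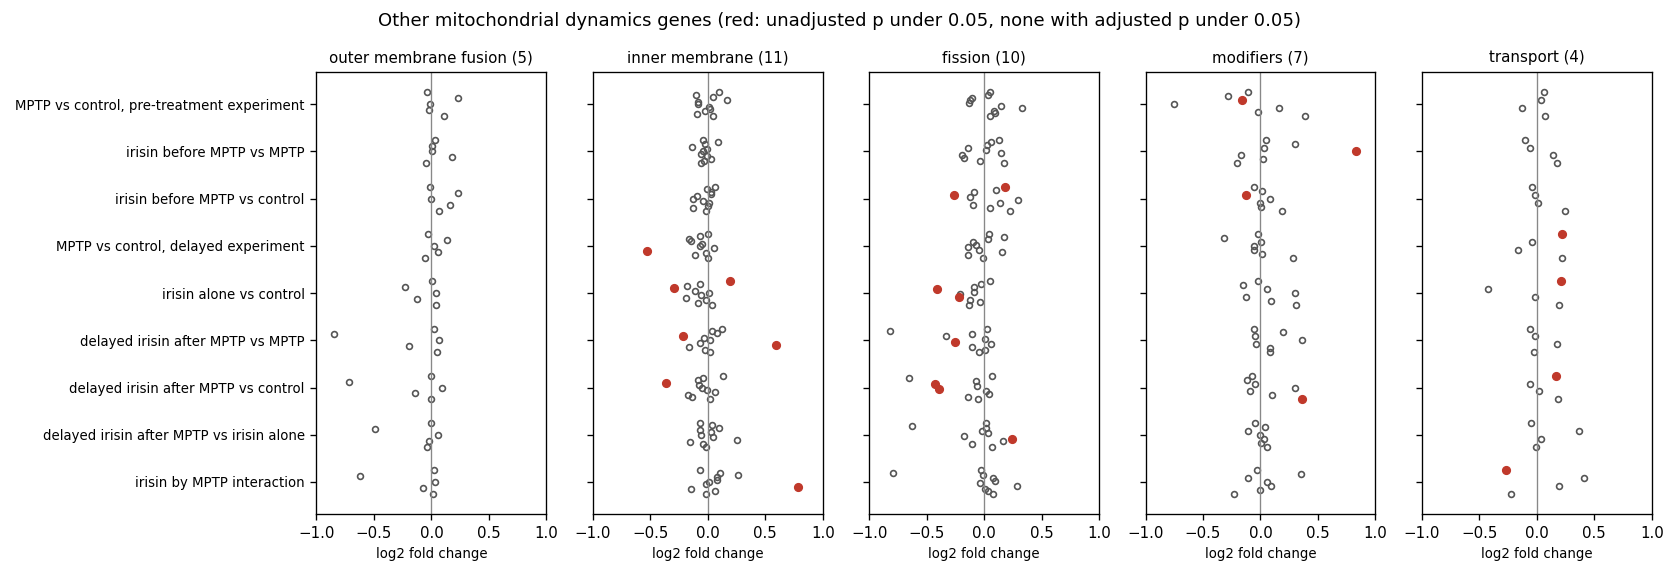
Log2 fold change (x axis) of 37 other genes of mitochondrial dynamics by class, in 8 comparisons and the interaction. Red points have an unadjusted p under 0.05 and none has an adjusted p under 0.05, so no gene plotted passed the test.

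A list of 37 other genes of mitochondrial dynamics was read beside the 7. It held outer membrane fusion factors, genes of the inner membrane and its proteases, further fission factors, modifiers such as the kinase Pink1, and genes that carry mitochondria along microtubules. edgeR called 0 of the 37 in each of the 9 comparisons, and DESeq2 and limma called 0 as well. At an unadjusted p under 0.05 there were 1, 1 and 3 of the 37 in the 3 comparisons of the pre-treatment experiment, in the order MPTP against control, irisin pre-treatment against MPTP and irisin pre-treatment against control. There were 2 between delayed MPTP and control mice, 5 between irisin-alone and control mice, 5 between delayed irisin and control mice, 3 between delayed irisin and MPTP mice, 1 between delayed irisin and irisin-alone mice and 2 in the interaction. Over all genes, 6.03%, 6.22% and 7.12% were under that p in the 3 comparisons of the pre-treatment experiment, in the same order. For the others, in the order just given, the shares were 8.33%, 8.97%, 9.31%, 3.9%, 3.88% and 5.57%.

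Trak2, an adaptor between mitochondria and kinesin, had the pattern of Mfn2. It was 172, 190.1 and 178 CPM in delayed controls and 198 to 217 CPM in the other 9 mice, with log2 fold changes of 0.22 in MPTP mice (SE 0.056, edgeR adjusted p = 0.305) and 0.21 in irisin-alone mice (SE 0.056, edgeR adjusted p = 0.374), and with an interaction of -0.27 (SE 0.080, edgeR adjusted p = 0.810). Phb2, a prohibitin that scaffolds the inner membrane, was the other gene of the list that put the 9 mice on one side of the controls, here below them. These were 2 of the 37 genes, where 3.25% of all 21922 genes tested showed this split, chosen after the values were seen, in either direction. Phb2 was 61.8, 55.5 and 53.1 CPM in controls and 40.7 to 51.7 CPM in the others, with log2 fold changes of -0.36 in delayed irisin mice (SE 0.094, edgeR adjusted p = 0.356) and -0.29 in irisin-alone mice (SE 0.094, edgeR adjusted p = 0.457). Mief2, an outer membrane receptor for DRP1, had a log2 fold change of -0.39 between delayed irisin and control mice (SE 0.10, edgeR adjusted p = 0.357) and of -0.25 between delayed irisin and MPTP mice (SE 0.10, edgeR adjusted p = 0.9995).

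Immt, which encodes mitofilin of the cristae junction, had 2 levels. In the delayed treatment experiment they were mixed within the irisin-alone group only, unlike those of Mff. Immt was 167, 179.9 and 185 CPM in delayed controls, 118, 127 and 219.8 CPM in irisin-alone, 117, 119 and 133 CPM in MPTP and 178, 185 and 193 CPM in delayed irisin mice. The log2 fold change was -0.53 between MPTP and control mice (SE 0.19, edgeR adjusted p = 0.473) and 0.59 between delayed irisin and MPTP mice (SE 0.19, edgeR adjusted p = 0.9995), with an interaction of 0.78 (SE 0.26, edgeR adjusted p = 0.893). Without the irisin-alone mouse at 219.8 CPM, edgeR put Immt under the threshold between irisin-alone and control mice (log2 fold change -0.53, adjusted p = 0.0455) and in the interaction (1.12, adjusted p = 0.00361), where it called 0.0838% and 0.0485% of all genes. In the first experiment Immt was 103 to 175 CPM, with mice at both levels in each of the 3 groups, and its log2 fold changes were -0.01 to 0.02. Rhot1 (46.6 to 85.2 CPM) and Trak1 (81.1 to 166 CPM) also had 2 levels in the second experiment, with mice at both in every group. Rhot1 was lowest in mouse 2 of each of these groups, at 49.3 (control), 46.6 (irisin-alone), 46.9 (MPTP) and 48.8 CPM (delayed irisin).

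In each comparison of the pre-treatment experiment, the 2 genes of the list with the smallest unadjusted p were among Pink1, Pgam5 and Spire1. The third gene under 0.05 between irisin pre-treated and control mice was Mtfr1, a mitochondrial fission regulator (log2 fold change -0.26, SE 0.11, edgeR adjusted p = 0.668). Pink1, the kinase that marks damaged mitochondria, was 445, 454 and 442 CPM in control, 398, 398 and 403 CPM in MPTP and 425, 411 and 393 CPM in irisin pre-treated mice, with log2 fold changes against controls of -0.16 (SE 0.046, edgeR adjusted p = 0.803) and -0.13 (SE 0.046, edgeR adjusted p = 0.632). Pgam5, a mitochondrial phosphatase, was 41.5, 32.7 and 16.3 CPM in control, 18.7, 17.4 and 17.7 CPM in MPTP and 38.3, 19.3 and 38.1 CPM in irisin pre-treated mice. Its log2 fold change was -0.75 between MPTP and control mice (SE 0.35, edgeR adjusted p = 0.826, and -0.46 without control mouse 1) and 0.83 between irisin pre-treated and MPTP mice (SE 0.35, edgeR adjusted p = 0.773). Spire1, an actin nucleator with a form at mitochondria, was 205 to 206 CPM in irisin pre-treated mice and 170.0 to 196 CPM in the 6 others, with log2 fold changes of 0.18 against controls (SE 0.059, edgeR adjusted p = 0.568) and 0.13 against MPTP mice (SE 0.059, edgeR adjusted p = 0.815). In these comparisons the groups did not overlap for 13.6% and 14.2% of all genes. The share that separated irisin pre-treated mice from both other groups was not counted. Between delayed irisin and irisin-alone mice the smallest unadjusted p were those of Mief1, another receptor for DRP1 (0.24, SE 0.096, edgeR adjusted p = 1.0), and Chchd6 of the cristae junction (-0.16, SE 0.083, edgeR adjusted p = 1.0).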

How the data were processed

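RNA from 21 mice was sequenced on the Illumina platform. The authors counted reads per gene with featureCounts, and the deposited count of every gene in every mouse was the unit of the tests. The authors also deposited FPKM beside the counts, from which levels per gene length were taken. The submitters' processing notes name HISAT, StringTie and edgeR and the build mm9, while the coordinates in the tables are those of GRCm38. The use of strand is not given in the sources used here. All 42 columns of per-mouse values were used.

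Groups came from the sample titles. P-values measure the spread between the samples that the labels number as replicates. The test was that of edgeR 4.0.16 in R 4.3.3 (filterByExpr, least count 10, least total 15, TMM, quasi-likelihood test, two-sided, all groups of an experiment in one fit, Benjamini-Hochberg over all tested genes, threshold 0.05). The SE is the size of the log2 fold change divided by the square root of F. All 7 genes and all 37 of the list passed the filter in both experiments. Correlations used log2(CPM + 0.1) of genes with a mean of at least 1 CPM in both experiments. The steps were tested on simulated counts.

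The genes, lists and comparisons were chosen with earlier results of these data known. The rule named all 7 genes, and in each comparison the 2 members and the 2 other genes with the smallest unadjusted p and any past the threshold, and for each member the 3 genes with the highest r. Alternatives were median ratio scaling, no filter on low counts, DESeq2 1.42.0, limma 3.58.1 on log2(FPKM + 1) or log2(FPKM + 0.1), which understates the change of low genes, a fit of the compared groups alone, a replicate block, and leaving out each mouse. GENCODE M21 and RefSeq (GRCm38.p6) gave exon lengths, overlapping genes and promoters. All 7 symbols matched a promoter window.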

Additional observations from a re-analysis of the deposited data

How the results depend on the processing

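Of 244 recounts of called genes under the alternatives, 240 gave the count reported, 0. With DESeq2, 1 of the 7 genes (Mfn2) was called between delayed MPTP and control mice and 1 (Mfn2) between irisin-alone and control mice, where DESeq2 called 178 and 144 genes in all and edgeR 29 and 24. When each mouse was left out in turn, the count of other dynamics genes ranged from 0 to 1 between irisin-alone and control mice and from 0 to 1 in the interaction. The 1 was Immt, without the irisin-alone mouse 3. Of 488 recomputed log2 fold changes of the genes with the smallest unadjusted p in each comparison, 2 changed sign, both when a mouse was left out. Dnm1l between irisin pre-treated and MPTP mice ranged from -0.014 to 0.14, and Mfn2 between delayed irisin and irisin-alone mice from -0.081 to 0.0078. Over all 7 members and 9 comparisons, 62 of 420 values changed sign when a mouse was left out, in 33 of 63 pairs of gene and comparison, none of them called. The values of Mfn2 and Opa1 against delayed controls kept their sign. From summed CPM in place of FPKM, the ratio of fusion to fission genes was 0.794 in control, 0.969 in MPTP and 0.953 in irisin pre-treated mice, and 0.980 in control, 1.07 in irisin-alone, 1.13 in MPTP and 1.07 in delayed irisin mice, since CPM does not divide by length. With Oma1 added to the fission sum, the group mean of the FPKM ratio moved by less than its SD. Leaving out 1 mouse in turn gave mean FPKM ratios of 0.497 to 0.564 in pre-treatment controls and 0.652 to 0.694 in MPTP mice. In the delayed treatment experiment they were 0.629 to 0.680 in controls and 0.738 to 0.766 in MPTP mice.

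Replicate numbers are shared by the groups but come from different mice. Deviations of same-numbered mice had correlations of -0.078 to 0.10 in the pre-treatment and -0.076 to 0.039 in the delayed treatment experiment. Those of mice with different numbers were -0.11 to 0.14 and -0.068 to 0.083, so over all genes same-numbered mice were no more alike. Pairing of single genes was not tested, and Rhot1 was lowest in mouse 2 of each group of the delayed treatment experiment. With the replicate block, 0 of the 7 and 0 of the 37 genes were called in all 9 comparisons, and the log2 fold change of Mfn2 between delayed MPTP and control mice was 0.21 (edgeR adjusted p = 0.444). Depth set little of a limit, since Oma1, the lowest of the 7, had at least 382 counts in every mouse.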
